A study of Mus musculus with 6 samples.

Results

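The carbonic anhydrases are described here in the mouse heart, with and without the orphan nuclear receptor ERRα (estrogen-related receptor alpha), whose gene is Esrra. The members are 9 genes, Car2, Car3, Car4, Car5b, Car8, Car9, Car12, Car13 and Car14, of 18193 genes that had a probe set with a single symbol in the platform table. They were chosen by family, with the difference of Car3 between the genotypes already known. Every probe set of these genes is reported, which gave 20 of the 45037 probe sets on the array that are not controls. All of the members' differences between WT and KO come from the contrast that was in view at that choice, so they are given as descriptions with no p-value.

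RNA from 3 wild-type (WT) hearts and 3 hearts labelled as ERRα-null (KO) was hybridised to 1 Affymetrix Mouse430_2 array per heart, under basal conditions. All 6 mice were male per the labels, and 5 were C57BL/6J mice of 2 to 3 months; WT 1 carries no strain or age entry. How the null allele was made, and in which cells, is not stated in the labels. The labels number the mice separately within a genotype. The p-values given for genes outside the family, and all standard errors, do not rest on a gene's own spread between these 6 hearts alone. In limma each gene's variance was drawn toward a trend over all tested genes, which weighed as 45.6 degrees of freedom.

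Esrra read 368.1, 394.4 and 349.1 in the WT hearts, against 180.1 for the library labelled KO 1, 24 for KO 2 and 18 for KO 3. The library labelled KO 1 lay under every WT heart but well above the other KO libraries, so it went only partly with its label. A second Esrra probe set, 1442864_at, was dim, at 8.3 to 11.5 in WT and 8.3, 0.5 and 1.3 in KO 1 to 3. A comment in the array header of WT 1 numbers it as WT 3 while its title does not. Values without KO 1 or WT 1 are given beside the calls they changed. Array medians ran from 12.4 to 16, with WT 1 the brightest, and all 10 cardiac myocyte markers were read on every array, with a summed signal of 68918 to 76799 in WT and 65322 to 69668 in the libraries labelled KO. Values are signals from MAS5 on a linear scale, without detection calls, so low signals may be background. Signals of different probe sets are not set against each other, since each has its own response.

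Carbonic anhydrases are zinc enzymes that interconvert carbon dioxide and bicarbonate with the release of a proton. Isoforms differ in where they act: some are dissolved in the cytosol, some sit in mitochondria, and some are anchored in the membrane with the active site facing outward. In heart they work beside bicarbonate transporters, proton exchangers and lactate carriers to clear carbon dioxide and acid from working myocytes. Car3 is an isoform of low catalytic activity that is abundant in slow skeletal muscle and in fat, and Car2 is a fast isoform of red cells and many other tissues.

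Car3 was higher in each library labelled KO than in each WT heart on all 4 of its probe sets. On probe set 1449434_at, the brightest, the signal was 29.7, 42.8 and 67.8 in WT 1 to 3. The same probe set read 235, 1331.5 and 1147.7 in KO 1 to 3. The library labelled KO 1 lay well under the other KO libraries, at 5.02 times the WT mean against 28.5 times for KO 2 and 24.5 times for KO 3, and it is also the library that kept part of the Esrra signal. The mean of the KO libraries was 19.3 times that of WT, and the log2 difference of signal plus 16 was 3.59 (SE 0.284, 3 against 3 hearts). The within-group SD of these log2 values was 0.999, and the limma SE is smaller than that spread alone would give. The log2 difference was 4.36 without KO 1 and 3.38 without WT 1.

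The other 3 probe sets of Car3 kept the same order of groups at smaller ratios. Probe set 1460256_at, which the platform table links to the same transcript record as 1449434_at, read 22.2, 22.2 and 20 in the WT hearts and 47.9, 130.2 and 112.3 for KO 1 to 3. Probe set 1430584_s_at read 2.5, 2.2 and 6.5 in the WT hearts and 13.8, 27.3 and 16.5 for KO 1 to 3. Probe set 1453588_at read 5.9, 3.9 and 0.5 in the WT hearts and 9.4, 19.1 and 18.2 for KO 1 to 3. KO 1 was the lowest of the KO libraries on each of the 4 sets. Ratios of the group means were 4.51, 5.14 and 4.53 in that order, and the log2 differences were 1.50, 0.82 and 0.69, so the size of the Car3 difference depended on the probe set while its direction did not. The 2 dimmest sets, with WT means of 3.73 and 3.43, reached the minimum set for testing only through the KO libraries. They lay near the level at which the added 16 sets the log2 value, which compresses their differences.

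**Figure D1:**
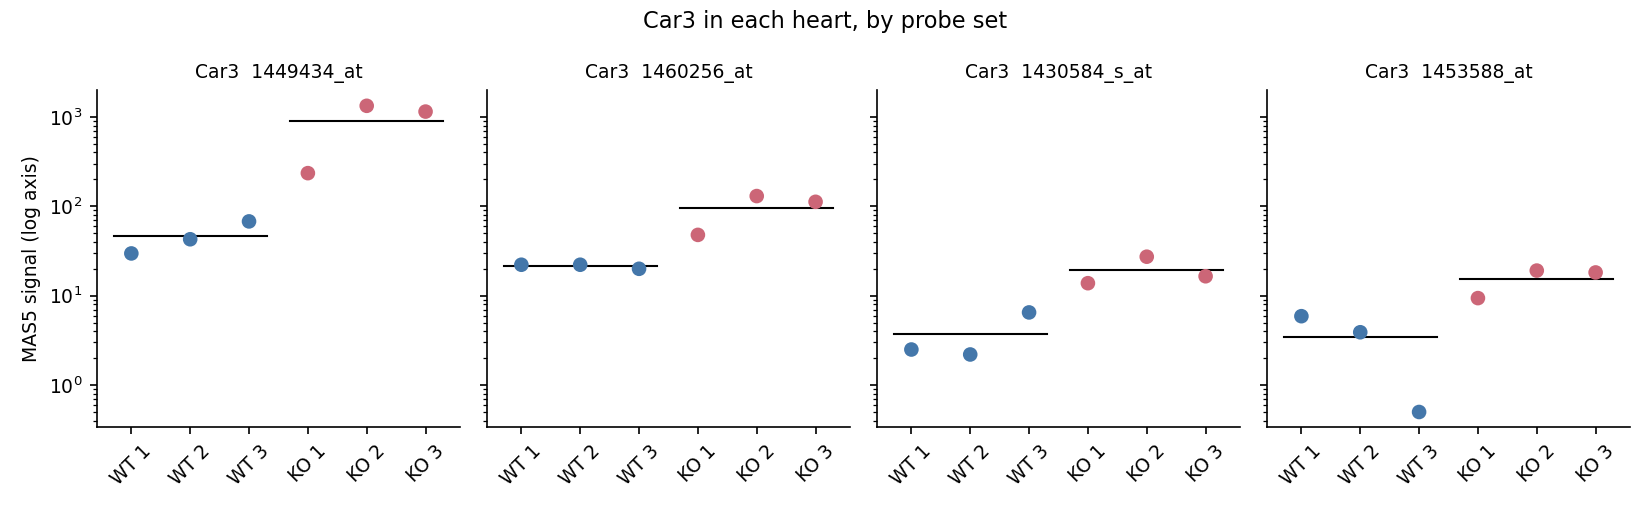
MAS5 signal of Car3 (log axis) in each of the 6 hearts, 1 panel per probe set, with WT hearts in blue, libraries labelled KO in red and a black line at each group mean. On 1449434_at the WT hearts sit between 29.7 and 67.8 and the KO libraries between 235 and 1331.5, and in every panel all KO points lie above all WT points.

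Among the 20 member probe sets, all KO libraries lay above all WT hearts for 5 and below them for 2, and the groups overlapped for 13. Over all 45037 probe sets the groups did not overlap for 12.6%, with 5.54% above and 7.03% below. The 5 higher sets were the 4 of Car3 and that of Car2, and the 2 lower sets were 1 of Car8 and that of Car9. With quantile normalization of the arrays 4 sets lay above and 4 below, since Car2 then overlapped and further sets of Car8 and Car14 lay below.

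Of the cytosolic members beside Car3, Car2 was high in the same 2 KO libraries that had the most Car3 signal. Its single probe set, 1448752_at, read 77.4, 74.2 and 60.6 in the WT hearts and 79.1, 180.2 and 172.1 for KO 1 to 3. KO 1 was level with the brightest WT heart at 1.12 times the WT mean, while KO 2 and KO 3 were at 2.55 and 2.43 times. The group means were 70.7 ± 8.92 and 144 ± 56.2 (SD, n = 3 each). The log2 difference was 0.81 (SE 0.195). Without KO 1 the difference was 1.15, and without KO 2 it was 0.63.

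Car13, another cytosolic isoform, was dim on its 3 probe sets, which ran from 0.1 to 11.9 over the 6 hearts. Its brightest set read 1.9, 11.7 and 5.6 in the WT hearts and 9.5, 8 and 7.3 for KO 1 to 3. The groups overlapped on all of its probe sets. The log2 difference was 0.14, and -0.013 without WT 1.

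Among the members anchored in the plasma membrane, Car14 is known from the membranes of heart myocytes. Car4 is known from capillary endothelium and the myocyte surface. Car14 read 807.4, 577.3 and 596.2 in the WT hearts and 497.4, 483.9 and 601.3 for KO 1 to 3 on its 1 probe set. KO 1 and KO 2 lay under every WT heart and KO 3 did not, so the groups overlapped as deposited. The means were 660 ± 128 in WT and 528 ± 64.2 in KO (SD, n = 3), with a log2 difference of -0.31 (SE 0.156). WT 1, the brightest array, carried much of it, and the difference was -0.16 without that heart.

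Car4 was read by 2 probe sets that moved together. Probe set 1418094_s_at gave 136.9, 114.4 and 107 in the WT hearts and 116.4, 93.7 and 216.3 for KO 1 to 3. Probe set 1448949_at gave 104.9, 96.7 and 104.8 in the WT hearts and 104.6, 78.4 and 200.2 for KO 1 to 3. On both sets KO 3 stood above all other hearts and KO 2 below all of them, and KO 1 lay within the WT range. The log2 difference on the first set was 0.15 (SE 0.193) with all hearts and -0.16 without KO 3, so its sign rested on that heart.

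Aqp1, a water and gas channel of red cells and endothelium, was also highest in KO 3. It read 1035, 1043.3 and 1434.4 in KO 1 to 3 against 919.4 to 1170.2 in WT. Over the 11 capillary endothelium markers the summed signal was 5110 to 6486 in WT, and 5870, 4611 and 6154 in KO 1 to 3, and 0 of the 11 passed the limma threshold in either direction or at an unadjusted p under 0.05. KO 2 was lowest and KO 3 highest of the KO libraries in that sum, as for Car4, and KO 3 stayed inside the WT range. The part of capillary content in the Car4 values was not tested.

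**Figure D2:**
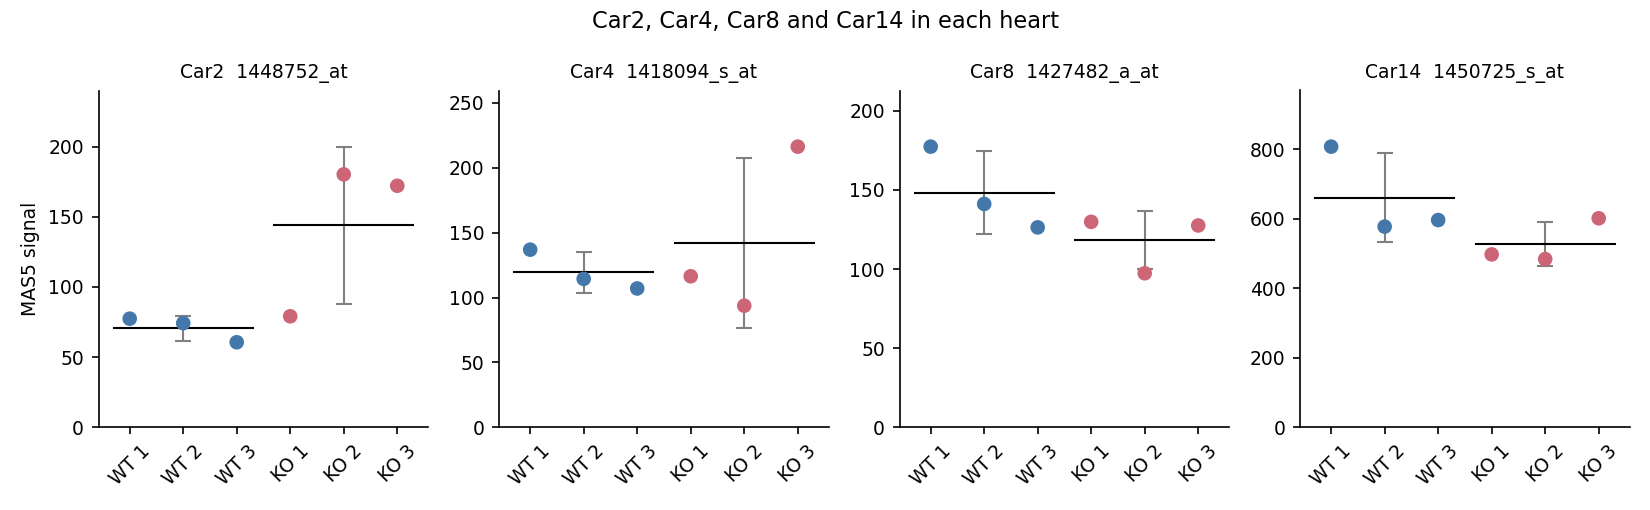
MAS5 signal (linear axis from 0) of Car2, Car4, Car8 and Car14 on the brightest probe set of each, per heart, with group means as black lines and grey bars of ± 1 SD (n = 3 hearts). Car2 is at 180.2 and 172.1 in KO 2 and KO 3 against 60.6 to 79.1 in the other hearts, and Car4 is high in KO 3 alone, at 216.3.

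Car9 and Car12 are transmembrane isoforms best known from tumours and epithelia, and Car9 is a classic gene of the response to low oxygen. Car9 read 17.9, 5 and 14.9 in the WT hearts and 2.3, 3.5 and 2.1 for KO 1 to 3 on its only probe set. Every KO library lay under every WT heart, at 20.9% of the WT level by the ratio of means, but the mean did not reach the minimum set for testing and the WT hearts themselves differed by 3.58-fold. The log2 difference was -0.59 with 16 added to each signal, -1.76 with 1 added and -0.20 with 64 added. Car12 ran from 0.5 to 10.6 on its 3 probe sets, with the groups overlapping on each.

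Car5b is the mitochondrial isoform of heart and muscle, where bicarbonate feeds carboxylases. Its 2 probe sets were dim. The first, 1419705_at, read 2.5, 9.5 and 10.7 in the WT hearts and 6.9, 5.4 and 8.3 for KO 1 to 3, a log2 difference of -0.027. The second, 1447928_at, read 12.2, 1.5 and 1.2 in the WT hearts and 2.3, 5.1 and 16.1 for KO 1 to 3, a log2 difference of 0.18. The 2 sets put different hearts at the top, and the groups overlapped on both.

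Car8 is a carbonic anhydrase-related protein that lacks enzyme activity and binds the inositol trisphosphate receptor, a calcium release channel. Its brightest probe set, 1427482_a_at, read 177.3, 141.1 and 126.3 in the WT hearts and 129.8, 97.3 and 127.5 for KO 1 to 3. Probe set 1424958_at read 28.2, 26.6 and 19.2 in the WT hearts and 18.5, 14.5 and 16.6 for KO 1 to 3, with no overlap. Probe set 1457904_at read 23.7, 17.5 and 10.6 in the WT hearts and 17.5, 5.9 and 11.5 for KO 1 to 3. All 3 sets were lower on average in KO, with log2 differences of -0.29 (SE 0.174), -0.32 and -0.27, and KO 2 was the lowest heart on each. The ratios of group means were 0.797, 0.670 and 0.674. Without WT 1 the first of these differences was -0.17.

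**Figure D3:**
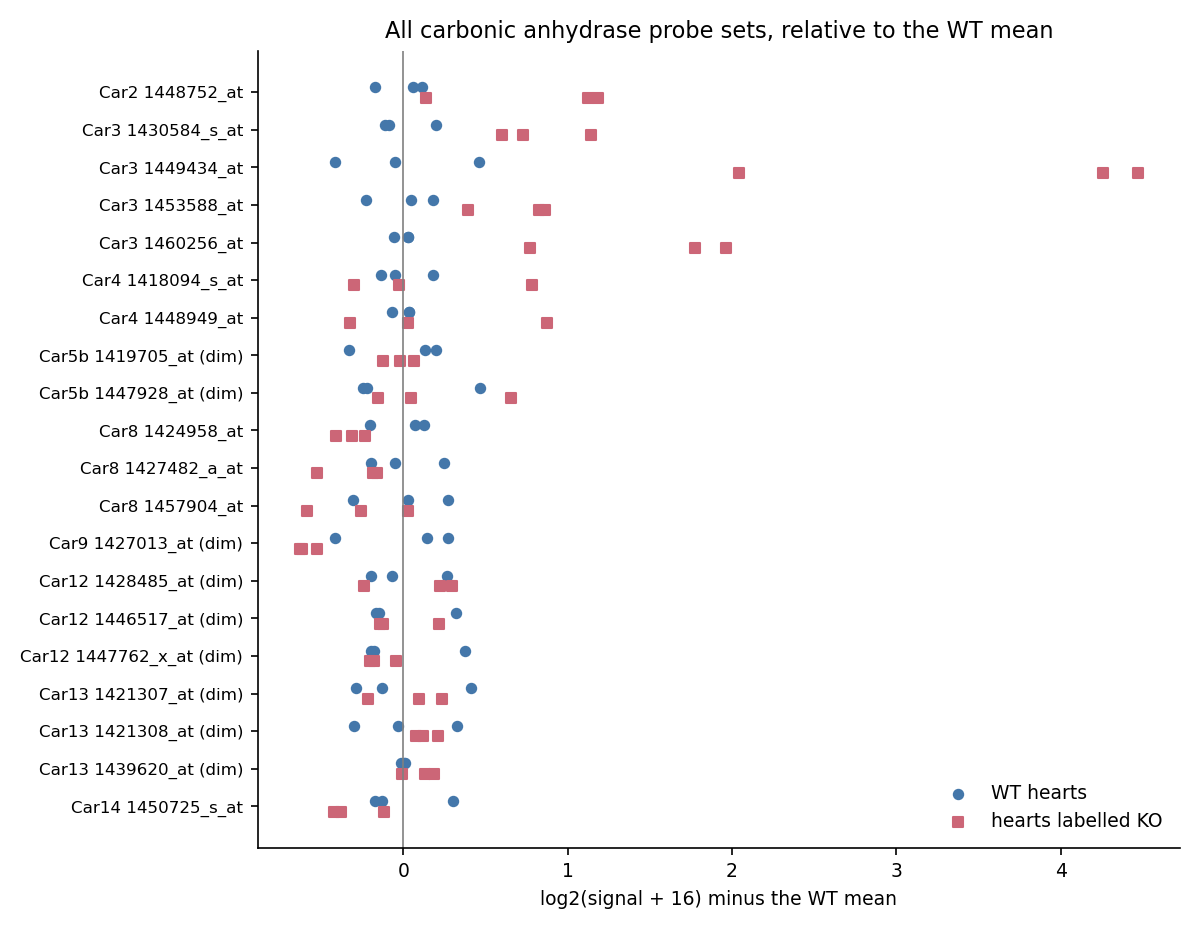
Each heart's log2(signal + 16) minus the WT mean for all 20 member probe sets, with blue circles for WT hearts and red squares for libraries labelled KO; "dim" marks probe sets whose mean lay below the minimum for testing. The KO squares of Car3 stand to the right of the WT circles on 4 of 4 sets, and those of 1424958_at (Car8) and of Car9 to the left.

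Counted in the fit over all 12946 tested genes, 5 of the 9 members had a probe set bright enough to test, and 4 (Car5b, Car9, Car12 and Car13) did not. Car2 and Car3 were past an adjusted p of 0.05, both higher in KO, and 0 were lower. In the same fit 1.78% of all genes were called higher and 1.18% lower, 2.97% together (231 and 153 genes, against 103 and 19 without WT 1), and nothing is read from the members' count, since the genes were chosen with this contrast in view. The median log2 difference of the 5 was 0.15, and that of all tested genes was -0.028. In the other settings tried, Car2 was not past the threshold with quantile normalization, median centring, cyclic loess, no filter or no intensity trend, nor without WT 1, KO 2 or KO 3.

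Car13, Car1, Car3 and Car2 lie next to each other on chromosome 3 in the RefSeq gene table of GRCm38.p6, in that order, so the neighbours of Car3 were read too. Car1, the abundant isoform of red cells, read 6.9, 6.7 and 9.7 in the WT hearts and 1.3, 12.2 and 2.3 for KO 1 to 3. Beyond the cluster, E2f5, a cell cycle transcription factor, read 14.8 to 161.9 in WT and 18.8 to 157.5 in KO. Rbis, a ribosome assembly factor, read 207.8 to 273.6 in WT and 206.1 to 228.1 in KO, and Sirpb1a, on the other side, stayed at 15.5 or less in every heart. Of the 4 cluster genes Car3 and Car2, which adjoin, were those with KO above WT. Of the outer neighbours Gm9733 had no probe set of a single symbol.

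The carbonic anhydrases outside the members were mostly dim. Car1, Car5a, Car6 and Car15 stayed at 18.7 or less in every heart, and 3 others were tested. Car11, a secreted related protein without activity, read 25.9, 25.8 and 25.9 in the WT hearts and 42.6, 36.3 and 35 for KO 1 to 3. Its groups did not overlap, but the log2 difference of 0.36 (SE 0.185) had an adjusted p of 0.416 in limma. Car7, a cytosolic isoform of brain and muscle, and Car10, a relative without activity, were at -0.20 and -0.28 on their brightest probe sets. They did not pass either (limma adjusted p = 0.755 and 0.707). The sign of Car7 depended on the probe set, with -0.27 on 1434973_at and 0.28 on 1452484_at.

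Promoter sequences of the members are shown because ERRα is a DNA-binding receptor whose motif is TCAAGGTCA, with AAGGTCA at its core, and because Car9 is a textbook target of the hypoxia-inducible factors, whose core motif is ACGTG. RefSeq promoters of GRCm38.p6 matched 5 of the 9 members, Car4, Car5b, Car9, Car12 and Car14; Car2, Car3, Car8 and Car13 had no entry. Each window of 300 bases ran from 250 before to 50 after the gene start, and both strands were searched. The 250 bases before the start are printed for Car14, Car4 and Car9 in lower case. Matches to ACGTG, here read on the other strand as CACGT, are in capitals.
Car14, chr3:95904686-95904935, minus strand: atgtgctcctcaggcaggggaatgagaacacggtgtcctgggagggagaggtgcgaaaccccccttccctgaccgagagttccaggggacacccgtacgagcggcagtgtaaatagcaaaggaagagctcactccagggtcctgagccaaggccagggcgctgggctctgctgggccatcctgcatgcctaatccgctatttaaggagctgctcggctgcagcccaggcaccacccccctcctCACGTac
Car4, chr11:84957504-84957753, plus strand: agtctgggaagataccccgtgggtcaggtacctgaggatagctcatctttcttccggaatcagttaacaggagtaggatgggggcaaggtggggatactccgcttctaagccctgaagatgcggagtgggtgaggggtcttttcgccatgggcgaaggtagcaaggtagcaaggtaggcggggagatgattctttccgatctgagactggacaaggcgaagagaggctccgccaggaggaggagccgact
Car9, chr4:43506776-43507025, plus strand: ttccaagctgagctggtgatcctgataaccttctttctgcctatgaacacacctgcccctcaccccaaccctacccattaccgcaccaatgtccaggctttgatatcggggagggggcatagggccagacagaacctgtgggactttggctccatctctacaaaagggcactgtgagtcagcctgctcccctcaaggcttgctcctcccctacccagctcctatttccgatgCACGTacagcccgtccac

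AAGGTCA was found in 0 of the 5 member promoters, against 4.72% of 32851 promoters in the table, and TCAAGGTCA, which contains it, in 0 of the 5 against 0.423%. ACGTG was found in 3 of the 5, against 19.6% of all promoters. The match began 18 bases before the start in Car9 and 7 bases before it in Car14. In Car4 it began at base 3 after the start, outside the printed stretch. These matches describe the letters in the windows.

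The genes that work beside the carbonic anhydrases, read from lists by function, and the other isoforms above gave no call. Of 25 genes tested in 4 lists 0 passed in limma, 3 had an unadjusted p under 0.05 and 13 had positive differences. The bicarbonate and anion transporters gave 0 of 7 past the threshold, with a median log2 difference of 0.0028. Slc4a3, the anion exchanger of heart muscle, read 713.8, 579.6 and 564.1 in the WT hearts and 618, 657.2 and 642.2 for KO 1 to 3. Slc4a4, the sodium bicarbonate cotransporter, read 124.8 to 146.6 in WT and 137.6 to 181.4 in KO, and Slc4a1, the anion exchanger of red cells, 16.6 to 47.7 and 25.2 to 52.1. Their log2 differences were 0.052 (SE 0.149), 0.25 (SE 0.170) and 0.31 (SE 0.208).

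Of the genes of proton and lactate export and gas channels, 0 of 7 passed and 2 had an unadjusted p under 0.05, Aqp7 and Slc16a7. Aqp7, a glycerol channel of fat and muscle, read 73.3, 59.3 and 59 in the WT hearts and 34.5, 35 and 43.7 for KO 1 to 3, with no overlap. Its log2 difference on 1418849_x_at was -0.57 (SE 0.176, limma adjusted p = 0.0648), and the adjusted p lay between 0.0316 and 0.564 over the alternatives. The difference was -0.44 when the probe sets of Aqp7 were averaged. Without _s_at and _x_at probe sets it was -0.31 (limma adjusted p = 0.564). Slc16a7, a monocarboxylate carrier, read 12.2, 2.2 and 11.1 in the WT hearts and 18.1, 23.4 and 28.4 for KO 1 to 3 (log2 difference 0.70, SE 0.223, limma adjusted p = 0.0793). It passed without KO 1 (limma adjusted p = 0.0477) and with array weights (0.0331), and its adjusted p reached 0.397 over the alternatives. On the log2 scale the WT hearts of Slc16a7 averaged just under the minimum for testing, which it reached only through the KO libraries. It was not tested with a filter at the 60th percentile. Slc16a1, the main lactate carrier of heart, and Bsg, its chaperone basigin, were at 0.11 (SE 0.135) and -0.16 (SE 0.111). The 3 KO libraries of Bsg, at 3372.6 to 3534.2, lay just under the lowest WT heart at 3551.2.

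Of the enzymes that use bicarbonate, and the bicarbonate-sensing cyclase, 0 of 8 tested passed, with a median of -0.16 and 1 unadjusted p under 0.05. Acacb, the acetyl-CoA carboxylase at the mitochondrial surface, read 868.2, 767.2 and 724.2 in the WT hearts and 712.9, 614.6 and 559.9 for KO 1 to 3. Its groups did not overlap, and the log2 difference was -0.32 (SE 0.148, limma adjusted p = 0.346). Mccc2, a subunit of methylcrotonyl-CoA carboxylase, read 272.5 to 314.9 in WT and 226.9 to 234.3 in KO (log2 difference -0.29, SE 0.162, limma adjusted p = 0.477). Pccb and Mccc1 were at -0.18 and -0.17. Pcx, pyruvate carboxylase, was at 0.062.

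**Figure D4:**
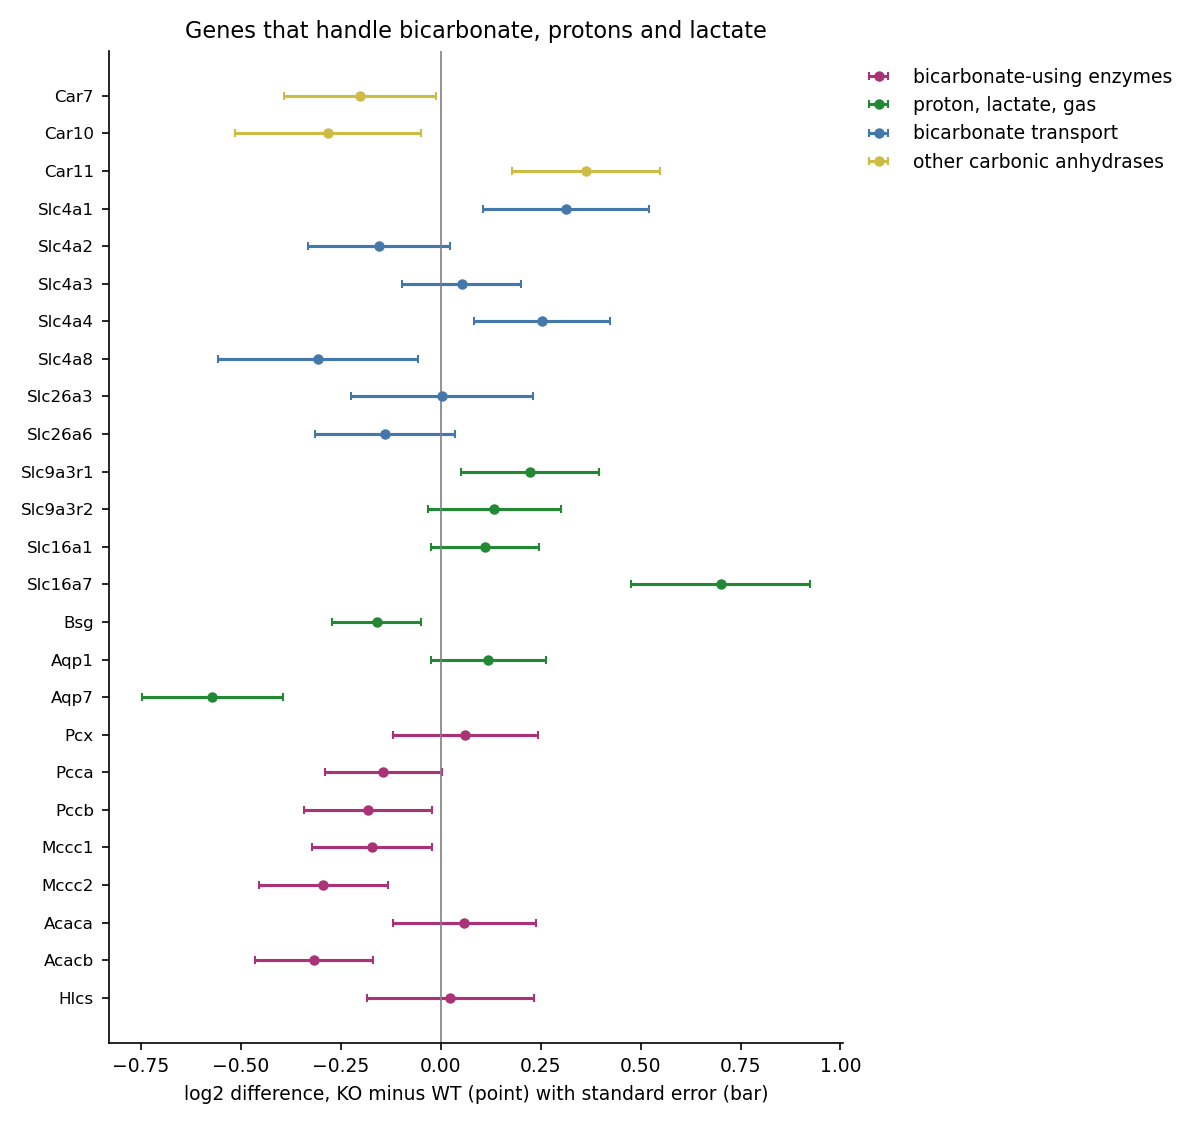
Log2 difference of KO minus WT (points) with its standard error (bars) for the 25 tested genes of the 4 lists, coloured by list, 3 against 3 hearts. Aqp7 lies farthest left at -0.57 and Slc16a7 farthest right at 0.70, and 0 of the 25 passed the limma threshold.

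Fat is a tissue rich in Car3, so its markers are given beside it. Of 10 tested adipocyte markers 3 rose, 0 fell and 7 did not pass, with a median of 0.25. Adipoq, the adipocyte hormone adiponectin, was at 2.95, 21.3 and 17.6 times its WT mean in KO 1 to 3, next to 5.02, 28.5 and 24.5 times for Car3. Retn, the hormone resistin, was at 1.44, 5.51 and 3.00 times, and Cidec, a lipid droplet protein, at 1.36, 3.97 and 4.46 times. For all of these genes KO 1 was the lowest KO library, as it was for Car2. Adipoq had an adjusted p of 3.43e-09, Retn 0.0180 and Cidec 0.0439 in limma. The groups of Cidec overlapped, with 11.6 in KO 1 against 12.2 in WT 1. Cidec did not pass with 1 or 8 added to the signal, nor when any single heart other than KO 1 was left out. Retn did not pass without KO 2 (limma adjusted p = 0.385), and neither gene passed with no intensity trend. The within-group SD of Adipoq was 0.992 in log2, and its limma adjusted p was 0.00113 with no intensity trend. Adipoq was the only 1 of the 3 to pass with quantile normalization (limma adjusted p = 0.0213), and 0 of the 10 passed without WT 1.

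Of the 12 measured fat markers 9 had KO 1 as the lowest KO library, as had 32.6% of all tested genes. Fabp4 and Plin4 were among those that did not. Fabp4, a fatty acid binding protein of fat that capillaries also make, read 3322.5 to 4025.1 in WT and 3255.4 to 4040.2 in KO, and Plin4, a droplet coat protein, 444.6 to 510.6 and 485.6 to 505.1. Lep, the hormone leptin, stayed at 6.9 or less in every heart. The summed signal of the 12 measured adipocyte markers was 4147 to 5054 in WT and 4366 to 5395 in KO. Of 6 brown fat markers 1 rose, Ucp1, with 1, 1.8 and 0.7 in the WT hearts and 16.7, 49.5 and 2.7 for KO 1 to 3 (limma adjusted p = 0.0314), and the order of its KO libraries was another. Its mean just reached the minimum for testing, through the KO libraries, and it was not tested without KO 1 or without KO 2. It did not pass with any of the 3 scalings of the arrays, nor without WT 1. Cidea, another droplet protein of brown fat, was lower in every KO library, with 297.6, 230.6 and 257.8 in the WT hearts and 187.3, 216.2 and 118.7 for KO 1 to 3. Its log2 difference of -0.58 had a limma adjusted p of 0.0648, which was 0.0439 without KO 1 and ran from 0.0205 to 0.681 over the alternatives. The part of fat content in the Car3 and Car2 values was not tested, and in a bulk sample more cells of a type and more RNA per cell cannot be told apart.

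**Figure D5:**
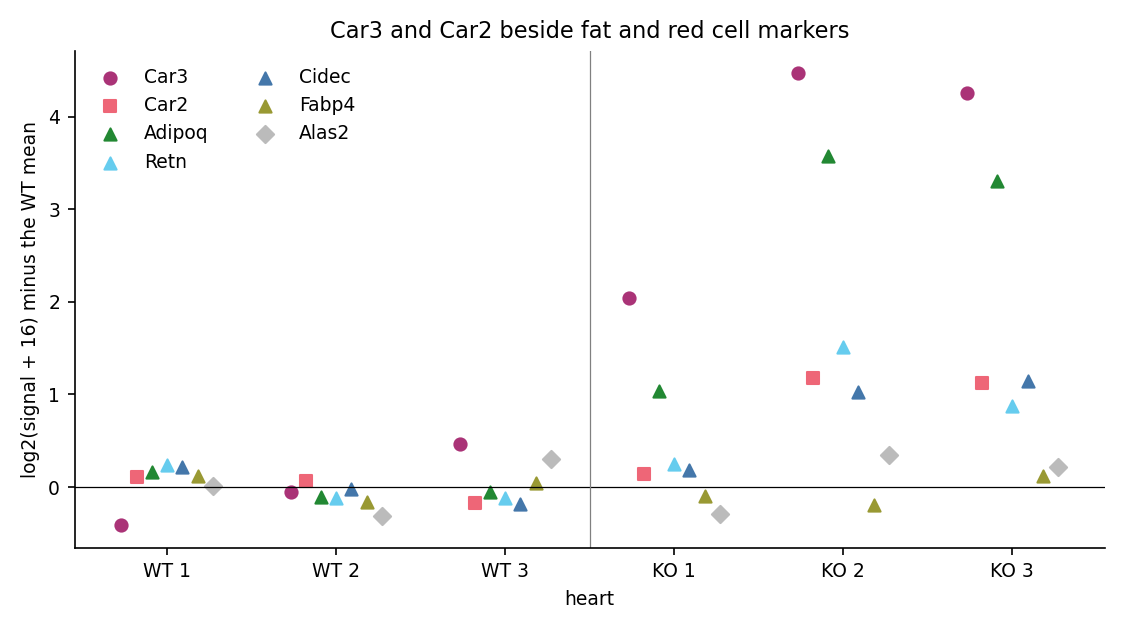
Log2(signal + 16) minus the WT mean in each heart for Car3 and Car2, the adipocyte genes Adipoq, Retn, Cidec and Fabp4 and the red cell gene Alas2; points are single hearts, shifted sideways for clarity. Car3, Car2, Adipoq, Retn and Cidec are lower in KO 1 than in KO 2 and KO 3.

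Markers of the other tissues that hold carbonic anhydrases gave a mixed picture. Of 8 skeletal muscle markers tested 2 rose and 2 fell. Tnni1, the slow skeletal troponin I that the fetal heart also makes, rose from 2.2, 3.6 and 1.5 in WT to 17.4, 40.6 and 49.7 in KO 1 to 3 (limma adjusted p = 2.56e-05). Tnni1 reached the minimum for testing only through the KO libraries, with a WT mean of 2.43. It was not tested with a filter at the 60th percentile. Acta1, skeletal actin, fell from 1452.3 to 1741.3 in WT to 745.4 to 1177.3 in KO (limma adjusted p = 0.00124). Tnni2 rose and Tnnt1 fell in the same fit, at 0.86 and -0.79. Tnni2 did not pass with any of the 3 scalings, nor without WT 3 or KO 3, and without WT 1 only Tnni1 of these genes did. The fast myosin genes Myh1, Myh2 and Myh4 were below the minimum, with 15.3 as the highest signal of the 6 dim markers, and the summed signal of the 14 measured markers was 1606 to 1977 in WT and 944 to 1464 in KO. Their part in the Car3 values was not tested.

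Of 3 red cell markers tested 0 passed, and 0 had an unadjusted p under 0.05 in limma. Alas2, which makes haem in red cell precursors, read 436.9, 344.8 and 540.6 in the WT hearts and 351.9, 557.4 and 504.6 for KO 1 to 3. KO 2 was the highest of the KO libraries here as for Car2, and KO 1 the lowest, but WT 3 lay at the level of KO 2. The globin genes Hba-a1 and Hba-a2 were dim on their probe sets of a single symbol, and those with several symbols were not used. The summed signal of the 7 measured red cell markers overlapped between groups, at 385.5 to 622.8 in WT and 400.2 to 634 in KO. Atrial markers rose for 8 of 10, with KO 1 highest in their summed signal at 17150 against 16036 in KO 2 and 14447 in KO 3, the other way round from Car3, and with 3271 to 10109 in WT. Without WT 1 the count of atrial markers that rose was 3. Of 5 lung markers 2 passed as higher, Scgb1a1 and Scgb3a2, both mainly in KO 2, where they read 323.5 and 167. Their WT means, 2.8 and 6.07, lay under the minimum for testing, and neither gene was tested without KO 2. Scgb1a1 read 2.5 in KO 1, inside its WT range of 1.7 to 4.2. Neither gene passed with any of the 3 scalings or without WT 1. The part of these tissues in the members' values was not tested.

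Genes with a pattern like that of Car3 over the 6 hearts were ranked by correlation, as a description. Among 1150 tested genes that spanned at least 1 log2 unit, the 8 with the highest Pearson correlation to Car3 were Atp2b2 (0.994), Eppk1 (0.992), Cdo1 (0.990), Myl9 (0.984), Jchain (0.984), Nr4a3 (0.984), Ppp1r1b (0.983) and Aldh1b1 (0.982), clone and predicted names left out. Of these, Atp2b2, Eppk1, Jchain and Nr4a3 reached the minimum for testing only through the KO libraries. Their WT means were 6.13, 5.57, 6.33 and 3.47. The minimum and the required span both favour genes that are high in KO, so the ranking is no support for a shared cause. Atp2b2, a plasma membrane calcium pump, read 6.2, 4.2 and 8 in the WT hearts and 26.4, 84.6 and 79.8 for KO 1 to 3. Cdo1, the cysteine dioxygenase of liver and fat, read 9.9, 5.5 and 14.7 in the WT hearts and 34, 89.3 and 82.6 for KO 1 to 3. Both had KO 1 between WT and the other KO libraries, as Car3 did. Myl9, the regulatory myosin light chain of smooth muscle, went from 354.6 ± 54.8 to 673 ± 119 (SD, n = 3). Among the genes with this span 30 had a correlation over 0.95; with 6 arrays in 2 groups such values are a description of these hearts. Within the family the correlation with Car3 was 0.92 for Car2, 0.24 for Car4, -0.60 for Car14 and -0.77 for Car8. Of the fat markers that rose, Adipoq was at 0.98, Cidec at 0.90 and Retn at 0.89. The fat markers that did not pass were not correlated with Car3.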

How the data were processed

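Signal intensity per probe set was deposited on a linear scale for 6 arrays; it comes from MAS5, per the submitters' processing notes, and its scaling target is not stated in the labels. Of 45099 probe sets 62 are controls, and 34945 of the others have 1 gene symbol in the platform table, 932 several and 9160 none; only the first kind was named. Log2(signal + 16) was compared without further scaling. A probe set was tested when its mean reached the 40th percentile of non-control sets (log2 4.60 or a signal of 8.17), and 1 set per gene was used, the brightest, giving 12946 genes. The test of KO against WT was two-sided in limma 3.58.1 under R 4.3.3 (lmFit, then eBayes with a trend on intensity), and p-values were adjusted by Benjamini-Hochberg over all tested genes with a threshold of 0.05. On simulated data with 12946 genes for this comparison, 28% of changes of 0.5 log2, 96% of 1 and 100% of 2 were recovered, with 11 false calls. Each simulated gene had the typical SD at its intensity. The rates therefore do not describe genes with a wider spread, such as Car3 and Adipoq.

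The members, the gene lists and the tests were chosen with earlier results of these data known. Named genes were every member and other carbonic anhydrase, Esrra, up to 4 genes of smallest p per list, the 8 genes most like Car3, and 2 coding genes on each side of the Car cluster; other list genes named (Slc4a3, Slc16a1, Aqp1, Pcx, Fabp4, Plin4, Lep and the fast myosins) were chosen after their values were seen. The array files name no build; promoter positions are those of the RefSeq table, and no measurement here depends on them. No pair of arrays held identical values. Alternatives were other pseudocounts, scalings, filters and rules for probe sets, no intensity trend, array weights, the replicate number as a block, and each heart left out in turn. The number of arrays limits the precision.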

Additional observations from a re-analysis of the deposited data

How the results depend on the processing

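Of 296 values recomputed under the alternatives for the members and the counts, 253 stayed close and 43 moved, with 0 reversals of a called value. A member's difference stayed close when it moved by less than its within-group SD, even if its sign turned. Only the differences of Car2 and Car3, the called members, could count as reversed. Some settings, such as no intensity trend and the replicate block, cannot change a difference. The log2 difference of Car3 was 1.65 when its probe sets were averaged, and 0.82, 0.69 and 1.50 on 1430584_s_at, 1453588_at and 1460256_at alone. Car9 was at -1.76, -0.90 and -0.20 with 1, 8 and 64 added, and Car13 at 0.56 with 1 added. Members past the threshold numbered 1, Car3, with quantile normalization, median centring, cyclic loess, no filter or no intensity trend, against 2 otherwise, and 1 to 2 leaving out 1 heart. Genes called higher and lower were 48 and 18 with no filter, 114 and 57 with no intensity trend, 103 to 299 and 19 to 209 leaving out 1 heart (lowest without WT 1; 119 and 77 without KO 3, and 84 lower without KO 2), and 434 higher with array weights. In the 4 partner lists 1 gene passed, Aqp7, with quantile normalization, median centring, cyclic loess or a filter at the 60th percentile, 2 passed with array weights, Aqp7 and Slc16a7, and 0 to 1 leaving out 1 heart, Slc16a7 without KO 1. Cell type markers were 10 higher with each of the 3 scalings, the 60th percentile or no intensity trend, against 16, and 8 with no filter; 0 were lower with no filter and 1 with no intensity trend, against 2. Leaving out 1 heart gave 4 to 15 higher and 0 to 4 lower, with 4 and 0 without WT 1 and 4 lower without KO 1. The cause of these moves was not tested. The signs of Car4, Car5b, Car12 and Car13, whose groups overlapped, turned when single hearts were left out.

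Mice share numbers across genotypes, but the deviations of same-numbered hearts correlated at 0.027, -0.016 and 0.029, so the numbers were not taken as pairs. With the replicate block 2 members were past the threshold. The Car3 difference of 3.59 could not change there, since each replicate number holds a heart of each genotype. Absent detection calls, the dim members (Car5b, Car9, Car12 and Car13) may lie at background.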
